A study of Mus musculus with 12 samples.

Results

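Expression of 40 genes encoding liver-made proteins of blood coagulation and complement was examined in mouse liver under a diet containing norUDCA and under chow. The members were taken by gene name from a table of 35275 genes, and each name matched 1 row. Of the 40 members, 24 belong to coagulation and fibrinolysis and 16 to complement. The livers came from male C57Bl/6J mice aged 13 weeks that ate a diet with 0.5% norUDCA or chow for 1 week, after which the tissue was frozen in liquid nitrogen. NorUDCA, norursodeoxycholic acid, is a synthetic relative of the bile acid ursodeoxycholic acid whose side chain is shorter. The 2 groups were norUDCA livers (replicates 9, 10, 11, 12, 13 and 20) and chow livers (replicates 2, 3, 7, 8, 16 and 17), with 6 libraries each. The sample titles mark all 12 libraries as WT, and no further allele or agent is named for either diet. Whether each library is from a different animal is not stated in the labels, so p-values measure the spread between these libraries.

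The clotting cascade is a chain of serine proteases that circulate as inactive precursors, activate each other and end in thrombin, which turns fibrinogen into fibrin. Most of these proteins, their inhibitors and the enzymes that later dissolve the clot are secreted by hepatocytes. Complement is a related plasma system in which the classical, lectin and alternative pathways converge on cleavage of C3, followed by C5 and by assembly of the terminal components into a membrane pore. The liver is the main source of most circulating complement proteins, and several proteins of both systems belong to the acute phase response.

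Levels are given as CPM, the counts of a gene put on a common scale of sequencing depth with edgeR's TMM factors, which assume that the bulk of genes does not differ between libraries. A log2 fold change is of norUDCA over chow and is followed by its standard error, and genes with a Benjamini-Hochberg adjusted p under 0.05 were called, from edgeR's quasi-likelihood test over all 12378 genes that passed the filter on low counts. All 40 members passed that filter. For each member described singly, the lowest, the median and the highest of the 6 libraries are given in that order.

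Coagulation and complement transcripts were mostly lower in norUDCA livers. Of the 40 members, 22 fell, none rose and 18 were not called, while over all tested genes 15.3% were called, 6.73% higher and 8.62% lower. The fall was called for 13 of 24 coagulation members and for 9 of 16 complement members. The median log2 fold change was -0.42 over the complement members and -0.28 over the coagulation members, beside -0.0014 over all tested genes. The difference between the lists was not tested, because members of a list are not replicates of a diet. The changes ran up to 2.83-fold in C6, and 4 members fell over 2-fold, namely C6, C9 and C8b of complement and Serpina10 of coagulation. Of all 12378 tested genes, 367 were called with a change over 2-fold in either direction. In 11 of the 40 members every norUDCA library lay below every chow library, while 7.66% of all tested genes did not overlap between the diets in either direction. Of the 4 members with a log2 fold change above 0, F13b, Klkb1, Hrg and Mbl2, none passed the test. At an unadjusted p under 0.05 from edgeR 29 of the 40 members passed, beside 3713 of all 12378 tested genes. Mbl2 was the 1 member of the 29 on the higher side, and DESeq2 called Mbl2 higher after adjustment.

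**Figure D1:**
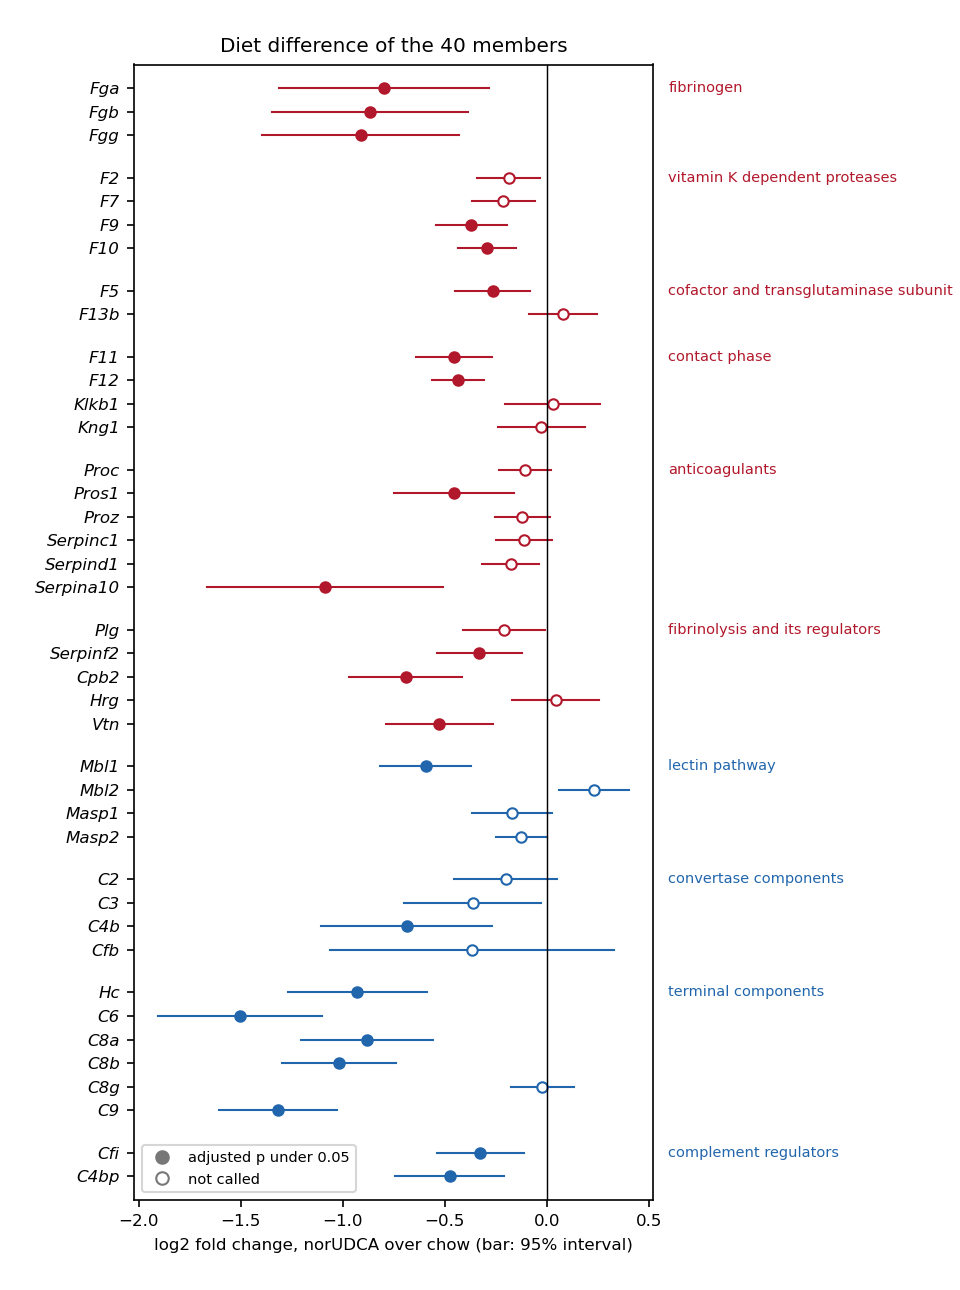
Log2 fold change of norUDCA over chow for the 40 members, ordered by role, with coagulation in red and complement in blue. Points are the fitted values, bars their 95% intervals, and filled points the 22 members called at an adjusted p under 0.05. The terminal components C6 and C9 lie farthest to the left.

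Scaling bears on these counts. The norUDCA libraries held 14065837 to 15342922 counts and the chow libraries 12209706 to 13715026, with no overlap (two-sided exact permutation p = 0.00216 for n = 6 each, the smallest that regrouping these libraries can give). The TMM factors separated the diets in the same way, from 1.02 to 1.07 in norUDCA libraries and from 0.916 to 0.974 in chow libraries. Scaling by total counts alone moved the median log2 fold change of all genes to 0.15 and turned the split of all calls from 833 higher and 1067 lower into 2434 higher and 565 lower. Under that scaling 8 coagulation and 6 complement members were called lower and 1 complement member, Mbl2, higher. The median log2 fold change was then -0.27 over the complement members and -0.13 over the coagulation members. In each of the 19 alternatives run, the complement median lay below the coagulation median.

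Chow replicates 2 and 3 stood apart from the other chow libraries in these genes. Chow replicate 2 was the highest chow library for 16 coagulation and 10 complement members, and chow replicate 3 the lowest for 15 and 13. The 40 members took 3.72% to 5.28% of the counts in norUDCA libraries and 4.23% to 7.95% in chow libraries, the highest share being that of chow replicate 2. Without chow replicate 2, 9 coagulation and 7 complement members were called lower, beside 982 of 12559 tested genes. Without chow replicate 3 these were 13 and 9, beside 1083 of 12546 tested genes. Leaving out norUDCA replicate 11, 12 or 20 gave 15, 16 and 16 members called lower in all, against 16 without chow replicate 2. Among the norUDCA livers, replicate 12 was the lowest library for 14 coagulation members and replicates 9 and 13 the highest for 9 each.

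**Figure D2:**
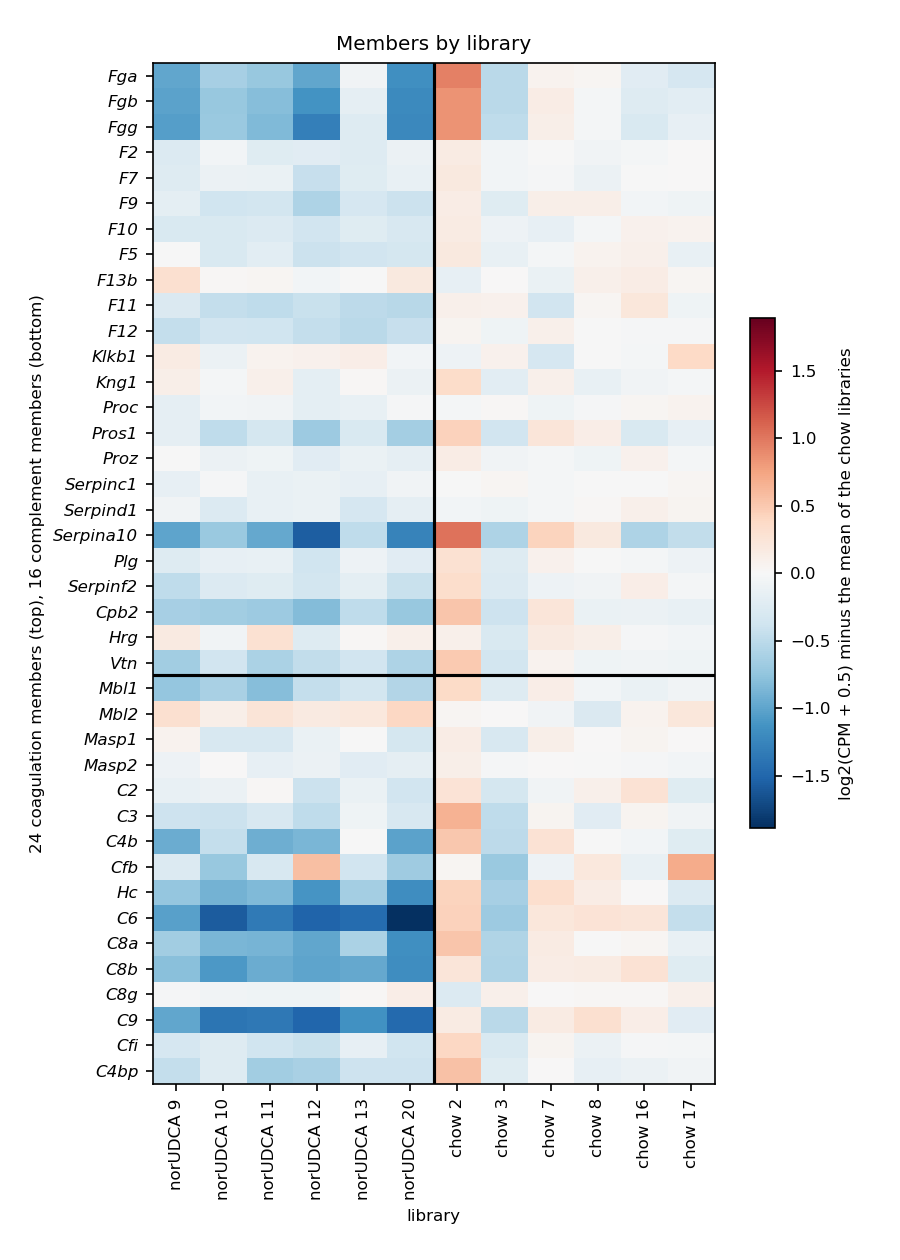
Level of each member in each library, as log2(CPM + 0.5) minus the mean of the chow libraries for that gene, with norUDCA libraries left and chow libraries right of the vertical line and coagulation members above the horizontal line. Blue is below and red above the chow mean. Chow 2 is the reddest column for the fibrinogen chains, and C6 and C9 are blue in all 6 norUDCA libraries.

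Fibrinogen, the soluble precursor of the fibrin clot, is built from the Aα, Bβ and γ chains encoded by Fga, Fgb and Fgg. All 3 chains fell, by 1.74- to 1.88-fold. In the deposited table the genes lie side by side on chromosome 3, Fgg at 83007859 to 83015053, Fga at 83026153 to 83033615 and Fgb at 83042247 to 83049803. Fgg had 2856, 3646 and 5878 CPM in norUDCA livers, against 4974, 6519 and 12610.3 CPM in chow livers (log2 fold change -0.91 ± 0.23, adjusted p = 0.0143). Fgb had 3275, 4002 and 6644 CPM in norUDCA livers, against 5295, 6938 and 13480.2 CPM in chow livers (log2 fold change -0.87 ± 0.22, adjusted p = 0.0178). Fga had 3542, 4421 and 7546 CPM in norUDCA livers, against 5558, 7461 and 15317 CPM in chow livers (log2 fold change -0.80 ± 0.24, adjusted p = 0.0382). In all 3 genes 5 norUDCA libraries lay below every chow library, and the diets overlapped through norUDCA replicate 13, the highest of its diet. Chow replicate 2 held the highest value of each chain, well above the next chow library. The calls of Fgb and Fgg held in every alternative, with adjusted p up to 0.0453 and 0.0376. That of Fga was lost under total counts (adjusted p = 0.0621). It was also lost without any 1 of norUDCA replicates 9, 10, 11, 12 and 20 or of chow replicates 2, 7 and 8, with log2 fold changes from -0.80 to -0.54 and adjusted p from 0.0608 to 0.0873. The CPM of Fgb was 1.07 to 1.20 times that of Fgg in norUDCA livers and 1.05 to 1.11 times in chow livers. That of Fga was 1.18 to 1.41 times that of Fgg in norUDCA livers and 1.02 to 1.21 times in chow livers.

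Per kilobase of the deposited gene length, the fibrinogen chains were the most abundant members under both diets. Fgb averaged 2626 RPKM (CPM per kilobase) in norUDCA livers and 4788 RPKM in chow livers, Fgg 2483 and 4674 RPKM, and Fga 1443 and 2505 RPKM. Vtn and C3 came next, and Cfb was lowest with 0.554 RPKM in norUDCA livers and 0.714 RPKM in chow livers. Cfb overlaps another gene on the same strand, and how reads there were counted is not given, so its rank holds only for the deposited counts. With the union of annotated exons as the length, the same 3 genes stayed on top in chow livers but Fgg came first with 3493 RPKM and Fgb last of the 3 with 2066 RPKM. In norUDCA livers that length put C3, at 1249 RPKM, above Fgb, at 1133 RPKM, and below Fgg and Fga.

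**Figure D3:**
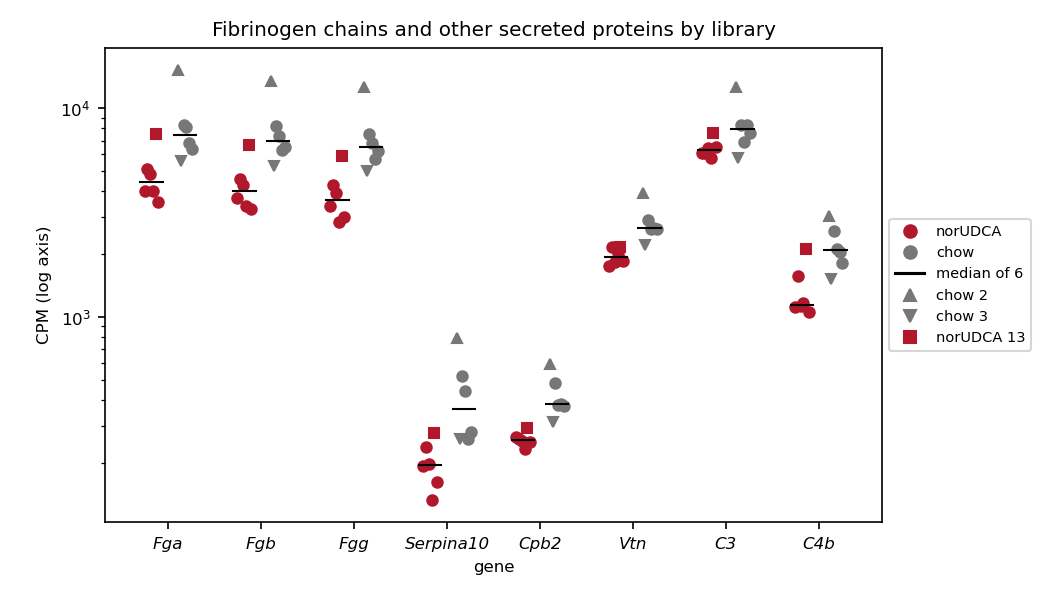
CPM on a log axis of the fibrinogen chains, 3 other coagulation members and 2 complement members in each library, norUDCA in red to the left and chow in grey to the right of each gene, with the median of 6 as a bar. Chow 2, chow 3 and norUDCA 13 have their own symbols. Chow 2 is the highest library for all 8 genes, and Cpb2 and Vtn do not overlap between the diets.

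Promoter sequences are shown for some members that fell and whose windows held a match to one of the motifs searched. Because a match was required, the sequences shown do not tell how often members that fell hold one. RefSeq windows on GRCm38.p6, from 250 bases before to 50 bases after an annotated start, were matched by symbol for 31 of the 40 members, 20 of coagulation and 11 of complement. Kng1, Proc, Serpina10, Plg, Masp1, C2, C4b, Cfb and Cfi had no entry. Motifs searched on both strands were GTTAAT (HNF1), CAAAGTCCA (HNF4), TTGCNNAA (C/EBP) and TTCNNNGAA (STAT), all named for transcription factors active in hepatocytes. GTTAAT was found in 10 of the 31 members, 6 of coagulation and 4 of complement, and in 7.10% of the 32851 promoters in the table. TTGCNNAA was found in 10 members, 8 of coagulation and 2 of complement, and in 10.8% of all promoters. TTCNNNGAA was found in 7 members, 5 of coagulation and 2 of complement, and in 8.30% of all promoters. CAAAGTCCA was in none of the 31 members and in 0.475% of all promoters. In the 100 bases around the start, GTTAAT was found in 3 members (1.81% of all promoters), TTGCNNAA in 5 (2.76%) and TTCNNNGAA in 1 (2.52%). Members that were not called held matches in the whole window too, GTTAAT in F2, F13b and Proz and TTCNNNGAA in Masp2. TTGCNNAA was also in C3, Hrg, Klkb1 and Serpinc1, which were not called. The other members with a match fell. A match is a description of letters, and binding was not measured.

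The 250 bases before the start are printed 5′ to 3′ on the strand of the gene, with motif matches in capitals, for Fga (chr3:83025903-83026152, plus strand), Fgb (chr3:83049864-83050113, minus strand), F11 (chr8:45262032-45262281, minus strand), C9 (chr15:6445096-6445345, plus strand) and C8b (chr4:104766067-104766316, plus strand). The RefSeq start lay upstream of the deposited gene start for Fgb (83049863 against 83049803) and downstream for C9 (6445346 against 6445327). For Fga, F11 and C8b the starts were the same. F11, C9 and C8b were among the 3 members of their list with the smallest p. The fibrinogen genes Fga and Fgb were added after their values were seen.
Fga: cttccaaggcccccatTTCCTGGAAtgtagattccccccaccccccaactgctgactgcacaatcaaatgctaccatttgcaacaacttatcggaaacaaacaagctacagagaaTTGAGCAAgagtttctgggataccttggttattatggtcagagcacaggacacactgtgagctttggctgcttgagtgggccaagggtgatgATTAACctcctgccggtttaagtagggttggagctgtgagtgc
Fgb: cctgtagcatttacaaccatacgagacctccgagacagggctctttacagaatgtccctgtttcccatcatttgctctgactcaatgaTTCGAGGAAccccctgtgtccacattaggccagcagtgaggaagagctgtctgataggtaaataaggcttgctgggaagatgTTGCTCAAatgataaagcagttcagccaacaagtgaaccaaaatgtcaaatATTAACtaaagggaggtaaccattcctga
F11: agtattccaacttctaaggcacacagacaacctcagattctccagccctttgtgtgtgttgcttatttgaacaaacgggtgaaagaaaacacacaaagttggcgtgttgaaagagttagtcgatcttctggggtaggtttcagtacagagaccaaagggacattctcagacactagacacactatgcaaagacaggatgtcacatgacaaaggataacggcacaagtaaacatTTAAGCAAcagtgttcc
C9: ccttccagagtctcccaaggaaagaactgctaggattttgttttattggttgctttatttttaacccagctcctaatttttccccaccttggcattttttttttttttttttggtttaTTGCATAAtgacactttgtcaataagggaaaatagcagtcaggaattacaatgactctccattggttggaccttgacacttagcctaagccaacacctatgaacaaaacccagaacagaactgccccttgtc
C8b: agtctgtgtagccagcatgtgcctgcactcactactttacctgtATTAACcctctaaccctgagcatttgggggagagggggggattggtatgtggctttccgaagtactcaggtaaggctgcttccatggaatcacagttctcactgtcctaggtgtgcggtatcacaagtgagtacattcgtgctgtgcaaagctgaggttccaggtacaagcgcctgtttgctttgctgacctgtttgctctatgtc
In Fga and Fgb the capitals mark, in order, 1 match each to TTCNNNGAA, to TTGCNNAA (in Fga its reverse complement) and to the reverse complement of GTTAAT. In C9 they mark TTGCNNAA, in F11 its reverse complement and in C8b the reverse complement of GTTAAT. F12 and C6, also among the members with the smallest p, held no match in this window, and Cpb2 held TTGCNNAA only after its start. Fgg, the other fibrinogen gene, fell as well and had an entry, but it held no match to any of the motifs.

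The vitamin K dependent proteases include prothrombin (F2), factor VII (F7), factor IX (F9) and factor X (F10), which carry the cascade from its start to thrombin. F9 and F10 fell and F2 and F7 did not pass the test. F10 had 345, 363 and 377 CPM in norUDCA livers, against 396, 447 and 491 CPM in chow livers (log2 fold change -0.29 ± 0.067, adjusted p = 0.00912). All norUDCA libraries of F10 lay below all chow libraries, but scaling by total counts ended the call (log2 fold change -0.14, adjusted p = 0.138). F9 had 132, 153 and 174 CPM in norUDCA livers, against 168, 202 and 218 CPM in chow livers (log2 fold change -0.37 ± 0.082, adjusted p = 0.00732), with 5 of 6 norUDCA libraries below the lowest chow library. F7 had 93.2, 112 and 118 CPM in norUDCA livers, against 117, 125 and 145 CPM in chow livers (log2 fold change -0.21 ± 0.072, adjusted p = 0.0593). F2, the most abundant of the 4 per length, had 1578, 1609.9 and 1823 CPM in norUDCA livers, against 1802, 1856 and 2096 CPM in chow livers (log2 fold change -0.19 ± 0.072, adjusted p = 0.0958). For both F2 and F7 5 norUDCA libraries lay below every chow library, and DESeq2 called them lower with adjusted p of 0.0209 and 0.0444. The range of adjusted p over the alternatives was 0.0209 to 0.744 for F2 and 0.0444 to 0.544 for F7. F7 and F10 are neighbours on chromosome 8 with Proz, at 13026034 to 13035809, 13037308 to 13056676 and 13060908 to 13075006.

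Factor V (F5) is the cofactor of factor Xa, and F13b encodes the carrier subunit of factor XIII, the transglutaminase that cross-links fibrin. F5 had 417, 445 and 552 CPM in norUDCA livers, against 501, 558 and 627 CPM in chow livers (log2 fold change -0.27 ± 0.086, adjusted p = 0.0499). Its norUDCA libraries lay below the chow range except replicate 9, the highest of its diet. The call of F5 stood at the threshold and held in 5 of 19 alternatives, with adjusted p over all of them from 0.0208 to 0.320. It was lost when norUDCA replicates 10, 11, 12, 13 or 20 or chow replicates 2, 7, 8 or 16 were left out, at log2 fold changes from -0.27 to -0.22 and adjusted p from 0.0715 to 0.114. F13b was not called (log2 fold change 0.080, adjusted p = 0.535), with a 95% interval from -0.087 to 0.25 on the log2 scale.

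The contact phase starts clotting on negatively charged surfaces. Factor XII (F12) and factor XI (F11), its proteases upstream of factor IX, fell. Prekallikrein (Klkb1) and high molecular weight kininogen (Kng1), also of the contact phase, were not called. F12 had 411, 431 and 456 CPM in norUDCA livers, against 557, 581 and 624 CPM in chow livers (log2 fold change -0.43 ± 0.059, adjusted p = 0.000266). The libraries of F12 spread little within each diet and the diets did not overlap. F11 had 79.5, 82.9 and 95.2 CPM in norUDCA livers, against 89.8, 119.8 and 134 CPM in chow livers (log2 fold change -0.45 ± 0.088, adjusted p = 0.00327), and the diets overlapped through norUDCA replicate 9 and chow replicate 7. Both calls held in every alternative. Kng1 (log2 fold change -0.027, adjusted p = 0.890) and Klkb1 (log2 fold change 0.028, adjusted p = 0.895) had 95% intervals from -0.24 to 0.19 and from -0.20 to 0.26. The neighbouring Kng2 shares sequence with Kng1, and summed counts of the pair gave a log2 fold change of -0.048 (adjusted p = 0.804). Klkb1, with 121 to 220 counts per library, overlaps Cyp4v3 on the same strand, which had 3682 to 6776 counts, and the sources used here do not say how reads in the overlap were counted.

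Among the anticoagulants, Serpina10 and Pros1 fell and the other 4 were not called. Serpina10 encodes the protein Z dependent protease inhibitor, which blocks factor Xa together with protein Z. It had 132, 196 and 277 CPM in norUDCA livers, against 259, 360.0 and 789.8 CPM in chow livers (log2 fold change -1.08 ± 0.27, adjusted p = 0.0147), the largest fall of the coagulation members. Chow replicates 2, 7 and 8 lay between 439.8 and 789.8 CPM and the other chow libraries between 259 and 280.3 CPM, so that the lower part of the chow range met norUDCA replicate 13. The call of Serpina10 held in every alternative, and without chow replicate 2 its log2 fold change was -0.81 (adjusted p = 0.0218). Pros1, which encodes protein S, the cofactor of activated protein C, had 50.7, 61.8 and 73 CPM in norUDCA livers, against 64, 81.8 and 112 CPM in chow livers (log2 fold change -0.45 ± 0.14, adjusted p = 0.0383). Its diets overlapped in 3 norUDCA libraries. The call of Pros1 was lost under total counts (adjusted p = 0.104) and without any 1 of norUDCA replicates 10, 11, 12 and 20 or of chow replicates 2, 7 and 8, with log2 fold changes from -0.46 to -0.35 and adjusted p from 0.0587 to 0.0895.

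The 4 anticoagulants that did not pass the test had log2 fold changes between -0.18 and -0.11. Serpind1, which encodes heparin cofactor II, an inhibitor of thrombin, had 393, 440.2 and 469 CPM in norUDCA livers, against 464, 486 and 521 CPM in chow livers (log2 fold change -0.18 ± 0.065, adjusted p = 0.0831). DESeq2 called Serpind1 lower (adjusted p = 0.0322), and its adjusted p over the alternatives reached 0.799. Protein Z (Proz, adjusted p = 0.227), protein C (Proc, adjusted p = 0.258) and antithrombin (Serpinc1, adjusted p = 0.271) were not called in any alternative. Their 95% intervals ran from -0.26 to 0.016 for Proz, from -0.23 to 0.022 for Proc and from -0.25 to 0.026 for Serpinc1. Serpinc1 varied little within a diet, with 1722 to 1890.4 CPM in norUDCA livers and 1881 to 1970 CPM in chow livers.

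Fibrinolysis is carried out by plasmin, made from plasminogen (Plg). Of its 5 members here, Cpb2, Vtn and Serpinf2 fell and Plg and Hrg were not called. Cpb2 encodes the carboxypeptidase known as thrombin-activatable fibrinolysis inhibitor, which removes the plasminogen binding sites of fibrin. It had 233, 257 and 295 CPM in norUDCA livers, against 312, 380.4 and 592 CPM in chow livers (log2 fold change -0.69 ± 0.13, adjusted p = 0.00268). Vtn encodes vitronectin, a plasma protein that stabilises plasminogen activator inhibitor and also binds the terminal complement complex. It had 1760.0, 1935 and 2167 CPM in norUDCA livers, against 2202, 2655 and 3941 CPM in chow livers (log2 fold change -0.53 ± 0.12, adjusted p = 0.0104). Neither Cpb2 nor Vtn overlapped between the diets, and both calls held in every alternative. Serpinf2, which encodes antiplasmin, had 683, 769 and 834 CPM in norUDCA livers, against 797, 915 and 1192 CPM in chow livers (log2 fold change -0.33 ± 0.097, adjusted p = 0.0327), with 4 norUDCA libraries below the chow range.

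The call of Serpinf2 was lost under total counts (adjusted p = 0.194), with no filter on low counts (adjusted p = 0.0640) and without any 1 of norUDCA replicates 9, 10, 11, 12 and 20 or of chow replicates 2, 16 and 17. The log2 fold changes of Serpinf2 were then from -0.34 to -0.26 and the adjusted p from 0.0512 to 0.0796. Plg itself was not called in any alternative (log2 fold change -0.21, adjusted p = 0.145), with a 95% interval from -0.41 to -0.011. Hrg, histidine-rich glycoprotein, which binds plasminogen and fibrinogen, had an interval from -0.17 to 0.26 (log2 fold change 0.043, adjusted p = 0.817).

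The terminal components are C5, encoded by Hc in the mouse, C6, the 3 chains of C8 and C9, which together with C7 form the membrane attack complex. They include C6 and C9, the members with the largest falls of the 40. Of the 6 genes, 5 fell, by 1.84- to 2.83-fold, and C8g did not pass the test. C6 had 134, 178 and 243 CPM in norUDCA livers, against 308, 581 and 675 CPM in chow livers (log2 fold change -1.503 ± 0.19, adjusted p = 0.000143). C9, the pore-forming subunit, had 302, 332 and 432 CPM in norUDCA livers, against 598, 937 and 1051 CPM in chow livers (log2 fold change -1.32 ± 0.14, adjusted p = 2.36e-05). C8b had 244, 278 and 318 CPM in norUDCA livers, against 368, 609 and 668 CPM in chow livers (log2 fold change -1.02 ± 0.13, adjusted p = 0.000170). For these 3 genes the highest norUDCA library lay below the lowest chow library, which was chow replicate 3 each time. Hc had 676, 839.5 and 975.1 CPM in norUDCA livers, against 987, 1603 and 2041 CPM in chow livers (log2 fold change -0.93 ± 0.16, adjusted p = 0.00144). C8a had 459, 558 and 674 CPM in norUDCA livers, against 687, 1029 and 1470.3 CPM in chow livers (log2 fold change -0.88 ± 0.15, adjusted p = 0.00144). Hc and C8a did not overlap either, with the highest norUDCA library, replicate 13 for both, just under chow replicate 3. All 5 calls held in every alternative, with adjusted p of at most 0.00507.

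C8 is a heterotrimer of α, β and γ chains, encoded by C8a, C8b and C8g. C8g had 344, 352 and 399 CPM in norUDCA livers, against 306, 371 and 392 CPM in chow livers (log2 fold change -0.022 ± 0.072, adjusted p = 0.879). Its 95% interval ran from -0.18 to 0.13, a range that leaves out the fitted values of the other terminal components. Chow replicate 2, the highest chow library of C8a, was the lowest of C8g. The CPM of C8b was 0.611 to 0.890 times that of C8g in norUDCA livers and 0.939 to 2.10 times in chow livers, with no overlap. That of C8a was 1.15 to 1.82 times that of C8g in norUDCA livers and 1.75 to 4.80 times in chow livers, with a small overlap. C8a and C8b lie side by side on chromosome 4, at 104815679 to 104876398 and 104766317 to 104804548, while C8g lies on chromosome 2, at 25498651 to 25501719. C6 and C9 are both on chromosome 15, at 4727175 to 4815456 and 6445327 to 6498751. Hc, C8a and C8g, like F5, Serpind1, Masp2 and C2, overlap a gene on the opposite strand, whose reads cannot be told apart if counting ignored strand. For C8g that gene, Fbxw5, had 470 to 596 counts per library, beside 3665 to 6457 for C8g. Pi4ka had 502 to 781 beside 5580 to 7054 for Serpind1, and Tardbp 735 to 989 beside 1893 to 2450 for Masp2. For Hc, Gm13449 had 19 to 62 beside 10775 to 24430. F5 also overlaps Gm16588 on the same strand, which had 0 to 6 counts beside 6316 to 7919 for F5. The ratio of C9 to C6 CPM was 1.70 to 2.29 in norUDCA livers and 1.40 to 2.01 in chow livers.

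**Figure D4:**
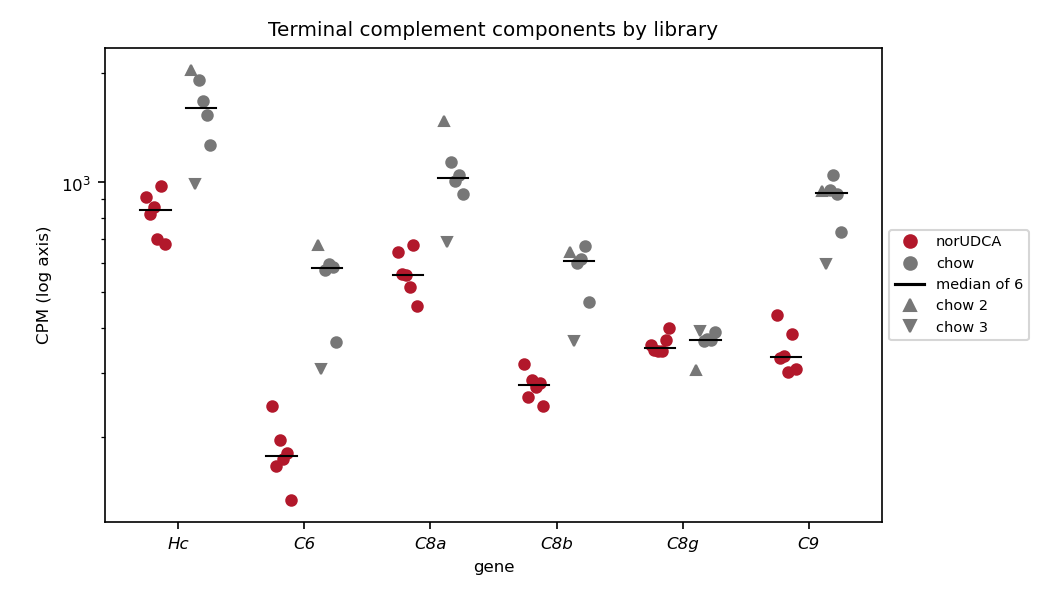
CPM on a log axis of the 6 terminal complement components in each library, norUDCA in red to the left and chow in grey to the right of each gene, with the median of 6 as a bar and separate symbols for chow 2 and chow 3. The diets are apart in Hc, C6, C8a, C8b and C9 and overlap in C8g.

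The lectin pathway begins with the mannose-binding lectins, made in the mouse from Mbl1 and Mbl2, which act through the proteases encoded by Masp1 and Masp2. Mbl1 fell and the other 3 genes were not called. Mbl1 had 113, 131 and 155 CPM in norUDCA livers, against 167, 189 and 253 CPM in chow livers (log2 fold change -0.59 ± 0.10, adjusted p = 0.00174), with no overlap between the diets and a call that held in every alternative. Mbl2 had 266, 288 and 324 CPM in norUDCA livers, against 205, 252 and 286 CPM in chow livers (log2 fold change 0.23 ± 0.081, adjusted p = 0.0672). All 6 norUDCA libraries of Mbl2 lay above its chow median and 3 above every chow library. Mbl2 was called higher under upper quartile scaling (adjusted p = 0.0452), total count scaling (0.00406) and DESeq2 (0.0385) and without chow replicate 17 (log2 fold change 0.28, adjusted p = 0.0352), and over all alternatives its adjusted p reached 0.136. The ratio of Mbl1 to Mbl2 CPM was 0.386 to 0.547 in norUDCA livers and 0.658 to 0.994 in chow livers, without overlap. Masp1 (log2 fold change -0.17, adjusted p = 0.241) and Masp2 (log2 fold change -0.12, adjusted p = 0.162) were not called in any alternative. Their 95% intervals ran from -0.37 to 0.028 for Masp1 and from -0.25 to -0.0012 for Masp2.

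The convertases, built from C2 and the C4b fragment of the C4 protein or from factor B (Cfb) and C3b, cleave C3 and then C5. The gene C4b, which encodes C4, fell and C2, C3 and Cfb were not called. C4b had 1061, 1145 and 2126 CPM in norUDCA livers, against 1519, 2085 and 3051 CPM in chow livers (log2 fold change -0.69 ± 0.20, adjusted p = 0.0287). Its diets overlapped through norUDCA replicates 10 and 13. The neighbouring C4a is a near copy of C4b, and summed counts of the pair gave a log2 fold change of -0.67 (adjusted p = 0.0250). The call of C4b was lost under total counts (adjusted p = 0.0571) and without any 1 of norUDCA replicates 9, 11, 12 and 20 or of chow replicates 2 and 7, with log2 fold changes from -0.63 to -0.57 and adjusted p from 0.0575 to 0.0698.

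C3, the protein on which the complement pathways converge and the most abundant complement member per length, had 5778, 6289 and 7598 CPM in norUDCA livers, against 5762, 7977 and 12629.9 CPM in chow livers (log2 fold change -0.36 ± 0.16, adjusted p = 0.134). The norUDCA values of C3 lay below the chow median but inside the chow range, and its call did not change in any alternative. C2, with 210 to 331 counts per library, and Cfb, with 12 to 46, had 95% intervals from -0.45 to 0.048 and from -1.06 to 0.33. Both overlap another annotated gene on the same strand, Gm20547, that was listed at 0 in all libraries. The sources used here do not say how reads in that overlap were counted, so the levels of C2 and Cfb may be undercounts. Summed counts of C2 and Cfb, which do not overlap each other, gave a log2 fold change of -0.22 (adjusted p = 0.197). That sum cannot recover any reads left uncounted in the overlap with Gm20547.

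Both complement regulators fell. Factor I (Cfi) is the protease that inactivates the protein fragments C3b and C4b, and C4b-binding protein (C4bp) is one of its cofactors. C4bp had 428, 505 and 574 CPM in norUDCA livers, against 574, 636 and 992 CPM in chow livers (log2 fold change -0.48 ± 0.13, adjusted p = 0.0195), without overlap between the diets, although the highest norUDCA library, replicate 10, came within 1 CPM of chow replicate 3. Its call was lost under total counts (adjusted p = 0.0576) and without norUDCA replicate 11 (log2 fold change -0.42, adjusted p = 0.0503). Cfi had 462, 487 and 556 CPM in norUDCA livers, against 509.6, 609 and 809 CPM in chow livers (log2 fold change -0.33 ± 0.099, adjusted p = 0.0388). In Cfi 4 norUDCA libraries lay below every chow library. The call of Cfi held in 7 of 19 alternatives, with adjusted p over all of them from 0.0152 to 0.189. It was lost under upper quartile and total count scaling and with no filter on low counts, and also without any 1 of norUDCA replicates 9, 10, 11, 12 and 20 or of chow replicates 2, 7, 16 and 17, then at log2 fold changes from -0.33 to -0.24 and adjusted p from 0.0545 to 0.0855.

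**Figure D5:**
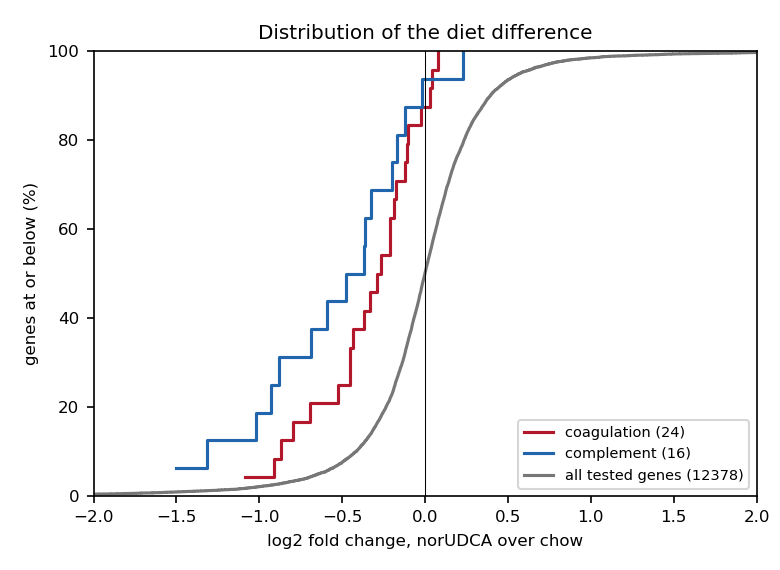
Cumulative share of genes at or below each log2 fold change of norUDCA over chow, for the 24 coagulation members (red), the 16 complement members (blue) and all 12378 tested genes (grey). The complement line starts farther left, at -1.503 for C6, and at the median of each group both member lines lie left of the grey line. The grey line begins farther left than either, and the axis ends at -2 and 2, beyond which a few of all genes lie.

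Further genes in or related to the same pathways, outside the member list, were listed by pathway, with earlier results of these data known. Of 22 further coagulation genes, 18 were tested, 2 (11.1%) fell and none rose, beside 8.62% lower over all tested genes. Serping1, which encodes C1 inhibitor, a regulator of the contact phase and of complement, had 493, 581 and 675 CPM in norUDCA livers, against 680.2, 848 and 1233 CPM in chow livers (log2 fold change -0.64 ± 0.13, adjusted p = 0.00377), without overlap. Fgl1, a fibrinogen-like protein secreted by the liver, had 72.8, 144 and 391 CPM in norUDCA livers, against 181, 420.4 and 1369 CPM in chow livers (log2 fold change -1.79 ± 0.47, adjusted p = 0.0193), with a wide spread in both diets. Ggcx, the carboxylase that uses vitamin K to modify clotting factors, was not called (log2 fold change -0.15, adjusted p = 0.218), nor was factor VIII, F8 (log2 fold change -0.14, adjusted p = 0.594).

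Of 27 further complement genes, 23 were tested, 4 (17.4%) fell and 2 (8.7%) rose, beside 8.62% lower and 6.73% higher over all tested genes. C1s1, which encodes the C1s protease of the classical pathway, had 229.8, 254 and 289 CPM in norUDCA livers, against 315, 337 and 356 CPM in chow livers (log2 fold change -0.40 ± 0.068, adjusted p = 0.00133). Clu, clusterin, which binds the terminal complex, had 1257, 1417 and 1483 CPM in norUDCA livers, against 1552, 1919.7 and 2522 CPM in chow livers (log2 fold change -0.50 ± 0.10, adjusted p = 0.00564). Neither C1s1 nor Clu overlapped between the diets. C1qb, a chain of C1q, had 12, 17.3 and 31.4 CPM in norUDCA livers, against 19.7, 33.3 and 42.2 CPM in chow livers (log2 fold change -0.70 ± 0.22, adjusted p = 0.0404). Vsig4, a complement receptor that also stands in the Kupffer cell marker list, had 4.15, 7.29 and 8.76 CPM in norUDCA livers, against 8.69, 12.9 and 23 CPM in chow livers (log2 fold change -0.97 ± 0.24, adjusted p = 0.0130). C1qb and Vsig4 overlapped between the diets. The 2 genes that rose encode the collectins CL-L1 and CL-K1, which start the lectin pathway. Colec10 had 14.1, 17 and 19 CPM in norUDCA livers, against 8.94, 11.6 and 13.3 CPM in chow livers (log2 fold change 0.55 ± 0.11, adjusted p = 0.00352). Colec11 had 16.3, 17.8 and 22.7 CPM in norUDCA livers, against 9.69, 13.1 and 15.7 CPM in chow livers (log2 fold change 0.57 ± 0.12, adjusted p = 0.00714). In both, every norUDCA library exceeded every chow library.

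Bulk tissue was sequenced, so fewer cells of a type and less RNA per cell cannot be told apart. Hepatocyte markers were abundant in all libraries, with a summed level of 63872 to 76365 CPM in norUDCA livers and 60792 to 81278 CPM in chow livers. Of the 5 hepatocyte markers analysed here, Apoa1 (-0.55) and Ahsg (-0.58) fell on the log2 scale, and Alb, Ttr and Cps1 were not called. Markers of Kupffer cells and macrophages fell in 4 of 5 cases, with a summed level of 67.5 to 151.5 CPM in norUDCA livers and 117 to 288 CPM in chow livers. Of 5 cholangiocyte markers 2 fell, Sox9 and Spp1, and the summed level was 32.7 to 41.0 CPM in norUDCA livers and 32.8 to 102 CPM in chow livers. Both tested neutrophil markers, S100a8 and S100a9, fell, at a summed level of 0.767 to 3.12 CPM in norUDCA livers and 1.503 to 10.3 CPM in chow livers, and the defining marker Ly6g was at or near 0. Cela1, the 1 tested marker of exocrine pancreas, fell to 11.8 to 16.9 CPM in norUDCA livers, against 26.5 to 39.6 CPM in chow livers, while Prss2 and Pnlip were at or near 0. Of 5 markers of stellate cells and fibroblasts Col1a1 rose, and the summed level was 110.4 to 149.7 CPM in norUDCA livers and 82.0 to 154 CPM in chow livers. None of the tested markers of sinusoidal endothelium, lymphocytes, erythroid cells and platelets was called. The part of these cell types in the falls of the members was not tested.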

How the data were processed

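Total RNA was extracted from frozen liver with TRIzol and made into NEBNext libraries for Illumina. The authors deposited a table of raw read counts for 35275 genes in 12 libraries, with coordinates and a gene length in bases (another quantity the authors deposited, used for RPKM). The submitters' processing notes name CASAVA, STAR and DESeq2. The sources used here give neither versions nor the counting tool, the treatment of strand and overlaps or the genome build. Of the 40 members, 23 have identical coordinates in GENCODE M21 (GRCm38). Deposited tables of the authors' own comparisons (FPKM, log2 fold changes, p-values, transporter lists) were not used.

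From the counts, edgeR 4.0.16 (R 4.3.3, TMM, filterByExpr, quasi-likelihood test, no covariate) was fitted over 12378 genes. Intervals are 95%. Alternatives were DESeq2 1.42.0, limma-voom (limma 3.58.1), other scalings, no filter and leaving out the 50 most abundant genes for scaling. Further alternatives left out each library or summed near copies or neighbouring genes. Klkb1 was not summed with Cyp4v3, which it overlaps. No 2 libraries matched within sampling noise. The pipeline was tested on simulated data. The members and lists were chosen with earlier results of these data known. Called members, members whose call an alternative changed, C3 and C8g are given with values, and others by intervals and counts. Of the further pathway genes, 1 is not reported here.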

Additional observations from a re-analysis of the deposited data

Results flagged for a closer look

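In 11 of the 80 sets of 6 libraries examined, 40 members in each diet, 1 library lay far from the others by Dixon's test at the 95% level, whose ratio is the gap to the nearest library divided by the whole range. Chance flags about 1 in 20 such groups, and members that vary together are not independent. Chow replicate 2 was the highest chow library for Fga (ratio 0.718), Fgb (0.639), Fgg (0.663), F2 (0.694), F7 (0.642), Masp2 (0.653), C3 (0.626) and C4bp (0.750), and the lowest for C8g (0.722). Chow replicate 3 was the lowest for Masp1 (0.666). Among the norUDCA livers, replicate 12 was the highest for Cfb (0.743), a gene with at most 46 counts in any library. Without chow replicate 2 the log2 fold changes were -0.54 for Fga, -0.64 for Fgb, -0.69 for Fgg and -0.34 for C4bp, and those of Fgb, Fgg and C4bp were still called.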

How the results depend on the processing

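No called member reversed its direction in any alternative. Of the 22 members called lower, 14 were called in every alternative. Of all 40 members, 12 changed their call in at least 1, among them F2, F7, Serpind1 and Mbl2, which were not among the 22. Under scaling by total counts 8 coagulation members and 14 members in all were called lower, and the count called higher was 1, Mbl2, as it was under upper quartile scaling, with DESeq2 and without chow replicate 17, against 0 otherwise. Leaving out 1 library at a time gave 9 to 13 coagulation, 6 to 9 complement and 15 to 22 members in all called lower, and 0 to 1 called higher. Over all tested genes the same omissions gave 773 to 1083 called lower. At an unadjusted p under 0.05 from edgeR, 29 of the 40 members passed, beside 3713 of all 12378 tested genes. No paired analysis was possible because the replicate numbers are not shared between the diets. Summing C4b with C4a, Kng1 with Kng2 and C2 with Cfb changed no call. The sum of C2 and Cfb does not address the overlap of each with Gm20547. Cfb, with 12 to 46 counts per library, had the widest interval of the members, from -1.06 to 0.33 on the log2 scale. Diet, total counts and TMM factor separate the same libraries and cannot be told apart.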
